A study of Mus musculus with 16 samples.

Results

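A set of 86 transcripts lay at no more than 50% of their starting level within 1 h of hyperosmotic stress in mIMCD3 cells, a cell line of the mouse inner medullary collecting duct. They were chosen by a rule on CPM (a gene's count times 1000000 over the total of its library), applied to the 4 libraries of DMSO-treated wild-type (WT) cells taken before stress and after 1 h. A member had at least 200 counts in both isosmotic libraries, and its higher value at 1 h was at most 50% of its lower isosmotic value. Of the 55367 genes in the files, 10171 had that many counts and 99 of them (0.973%) met the threshold. The symbol groups Slc, Zfp, Egr, Fos, Jun, Klf, Dusp, Hist and Id were then set aside, which removed 13 genes (Slc30a1, Zfp60, Zfp36, Zfp866, Zfp87, Fosl1, Junb, Klf7, Klf10, Dusp2, Dusp5, Dusp6 and Id1) and left the 86. Because the isosmotic and 1 h DMSO libraries chose the members, every value that involves them is a description here and was not tested. Just inside the threshold, Nuak2 lay at 49.3% and Hes1 at 49.8% of the lower isosmotic library, and just outside it Trim16 lay at 50.004% and Plekhf1 at 50.3%.

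The 16 RNA-seq libraries fell into 8 groups of 2 libraries, and every culture first received DMSO, a solvent, or 10 μM sulforaphane (SFN), which activates the transcription factor Nrf2, over 5 h. WT cells of both kinds were taken before stress, in isosmotic medium, or after 1 h or 6 h at 600 mOsm. Nrf2-/- cells, which all received SFN, were taken before stress or after 1 h. Nrf2-/- cells given DMSO were not analysed here. The Nrf2-/- cells were made with CRISPR/Cas9 delivered by lentivirus, and the sources used here do not state whether they were 1 clone. The labels name mIMCD3 cells, apart from 1 protocol field that speaks of primary tubular cells. The study calls the libraries of a group biological replicates, and the sources used here do not say how the cultures were separated. The p-values and standard errors (SE) rest on the spread between these libraries, taken as 1 value per gene that all 8 groups share. They do not measure the spread within a single group, such as Nrf2-/- cells at 1 h.

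Total counts lay between 34484296 and 50774875 per library. Nfe2l2, the gene of Nrf2, had 68.0 to 135 CPM in WT libraries and 10.6 to 12.1 CPM (386 to 433 counts) in the 4 Nrf2-/- libraries, a residual level that says nothing of the protein. Of 17 collecting duct markers, 12 reached 1 CPM in both WT isosmotic DMSO libraries (summed 3431 to 3791 CPM), among them keratins and Cdh1, while Aqp2, Avpr2 and Elf5 were at 0. Of 11 markers of other kidney and stromal cells, 4 reached 1 CPM there, with a sum of 26.1 to 27.3 CPM, which was 42.3 to 50.6 CPM after 6 h with DMSO and 5.01 to 7.99 CPM in the Nrf2-/- 1 h libraries, and Umod was at 0 in every library. The biological coefficient of variation between the 2 libraries of a group was 0.0393 to 0.128 in 7 groups and 0.348 in Nrf2-/- cells at 1 h, so values of that group carry the widest error. In bulk RNA, fewer cells that express a gene and less RNA per cell cannot be told apart.

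How quickly an RNA can disappear depends on how quickly the cell destroys it. Many mRNAs of signalling and growth control are short-lived by design, often through AU-rich stretches in their 3' untranslated region (3'UTR), and many of their genes have few introns. Host transcripts of small RNAs are another class with rapid turnover: small nucleolar RNAs (snoRNAs) are cut from introns and microRNA (miRNA) hairpins from introns or exons, and the remaining host RNA is often degraded. In the kidney medulla, where osmolality swings with the water balance, collecting duct cells meet such stress as part of their normal surroundings.

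Among the 86 members were 9 transcripts that contain miRNA hairpins in their genomic span on the same strand. They were Mir17hg (chr14:115042879-115046727), Spaca6 (chr17:17827158-17843009), Mir100hg (chr9:41376526-41615185), Dleu2 (chr14:61602839-61682373), 6720427I07Rik (chr13:48532905-48546500), Mir22hg (chr11:75461539-75466676), Gm49890 (chr4:88909854-88942042), Snhg20 (chr11:117076008-117078955) and Alkbh1 (chr12:87425840-87444017), all on GRCm38. Their mature miRNAs are shown because several hosts on different chromosomes carry miRNAs with the same seed, bases 2 to 8, which selects the targets of a miRNA. Sequences are from RefSeq (GRCm38.p6) with the seed in capitals. The libraries counted the host transcripts and not the mature miRNAs, which are stable RNAs of their own.

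Spaca6 carries miR-99b, let-7e and miR-125a, and Mir100hg carries miR-100, let-7a-2 and miR-125b-1, so these hosts share the seed of miR-99b and miR-100 and that of miR-125a and miR-125b. The third seed of the Spaca6 cluster, that of the let-7 family, also occurs in the 3 let-7 miRNAs of 6720427I07Rik. For let-7a-2 of Mir100hg the annotation used placed only the 3p arm there, so its 5p seed was not compared. The lines run through these 3 seed groups in turn.
miR-99b-5p: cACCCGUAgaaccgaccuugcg
miR-100-5p: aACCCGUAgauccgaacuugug
miR-125a-5p: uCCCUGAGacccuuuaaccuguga
miR-125b-5p: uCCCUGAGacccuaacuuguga
let-7e-5p: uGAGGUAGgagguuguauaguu
let-7d-5p: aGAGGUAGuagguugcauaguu
let-7f-5p: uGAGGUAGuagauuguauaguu
let-7a-5p: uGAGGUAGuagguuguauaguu

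Mir17hg is the host of the miR-17-92 cluster, a group known for driving proliferation, and Dleu2 hosts miR-15a and miR-16, known for restraining the cell cycle. Within the Mir17hg cluster, miR-17 and miR-20a share a seed, and miR-19a and miR-19b share another. The pair in Dleu2 also has a single seed. Mir22hg hosts miR-22 and Gm49890 overlaps the hairpin of miR-31.
miR-17-5p: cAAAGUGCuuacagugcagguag
miR-20a-5p: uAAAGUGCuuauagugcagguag
miR-19a-3p: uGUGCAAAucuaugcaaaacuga
miR-19b-3p: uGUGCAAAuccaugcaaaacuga
miR-18a-5p: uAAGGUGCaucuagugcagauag
miR-92a-3p: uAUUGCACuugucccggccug
miR-15a-5p: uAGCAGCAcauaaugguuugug
miR-16-5p: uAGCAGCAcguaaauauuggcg
miR-22-3p: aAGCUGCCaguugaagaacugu
miR-31-5p: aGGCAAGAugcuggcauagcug

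Mir17hg lay at 25.5 and 30.3 CPM in isosmotic DMSO-treated WT cells, 1.54 and 2.02 after 1 h and 53.96 and 55.8 after 6 h. The 1 h values were 6.37% of the isosmotic mean, and both 6 h libraries stood above both isosmotic libraries. With SFN, Mir17hg fell from 14.4 and 18.6 CPM to 0.925 and 1.74 CPM at 1 h (log2 fold change -3.59 ± 0.43 SE, adjusted p = 0.000239) and was at 57.4 and 52.3 CPM after 6 h, above its isosmotic level (log2 fold change 1.97 ± 0.35 SE, adjusted p = 0.000595). In Nrf2-/- cells it fell from 19.8 and 25.3 CPM to 2.58 and 0.575 CPM (log2 fold change -3.76 ± 0.42 SE, adjusted p = 0.000229). The cluster's host therefore had low values at 1 h in each of the 3 arms, and in both 6 h groups its libraries were the highest of the series.

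The 3 hosts with let-7, miR-99/100 or miR-125 seeds had the same order of levels in time. Spaca6, a gene of sperm and egg fusion that codes for protein, lay at 43.8 and 33.01 CPM in isosmotic DMSO-treated WT cells, 5.15 and 4.32 after 1 h and 110.1 and 104 after 6 h. With SFN it fell from 34.9 and 35.96 CPM to 3.13 and 4.02 CPM (log2 fold change -3.27 ± 0.17 SE, adjusted p = 1.92e-07). The fall in Nrf2-/- cells was from 39.3 and 36.2 CPM to 5.35 and 4.19 CPM (log2 fold change -2.90 ± 0.16 SE, adjusted p = 3.66e-07). After 6 h with SFN it stood at 128 and 118 CPM, above its isosmotic level by a log2 value of 2.03 ± 0.15 (adjusted p = 8.72e-08). Whether these reads came from the Spaca6 mRNA or from the miRNA precursor cannot be told apart in counts per gene.

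Mir100hg lay at 16.4 and 16.6 CPM in isosmotic DMSO-treated WT cells, 2.60 and 2.97 after 1 h and 26.6 and 24.7 after 6 h. With SFN Mir100hg fell from 21.6 and 24.2 CPM to 1.25 and 3.03 CPM (log2 fold change -3.38 ± 0.25 SE, adjusted p = 2.33e-06). After 6 h with SFN it stood at 24.7 and 25.9 CPM. The difference from its isosmotic level did not pass the test (log2 fold change 0.38 ± 0.21 SE, adjusted p = 0.149). The start of Mir100hg in Nrf2-/- cells was far higher, at 241 and 294 CPM, and it fell to 28.8 and 29.03 CPM (log2 fold change -3.12 ± 0.22 SE, adjusted p = 1.83e-06). The Nrf2-/- 1 h libraries, though lower than before stress, thus lay above the isosmotic libraries of both WT groups. 6720427I07Rik, with 3 let-7 hairpins, lay at 5.13 and 6.23 CPM in isosmotic DMSO-treated WT cells, 1.56 and 1.26 after 1 h and 12.6 and 13.9 after 6 h. It fell with SFN by 1.89 ± 0.38 on the log2 scale (adjusted p = 0.0059) and was above its isosmotic level at 6 h (log2 fold change 2.04 ± 0.34 SE, adjusted p = 0.000167).

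Dleu2 lay at 16.1 and 14.4 CPM in isosmotic DMSO-treated WT cells, 1.25 and 1.60 after 1 h and 14.6 and 14.5 after 6 h, and its SFN values were 11.7 and 12.8, 1.20 and 1.22 and 18.5 and 17.5 CPM in the same order. Gm49890 lay at 15.4 and 17.8 CPM in isosmotic DMSO-treated WT cells, 3.99 and 4.60 after 1 h and 33.7 and 31.2 after 6 h. In the Nrf2-/- arm Gm49890 fell from 21.02 and 38.8 CPM to 4.26 and 1.64 CPM (log2 fold change -3.26 ± 0.34 SE, adjusted p = 7.03e-05), against -1.34 ± 0.32 (adjusted p = 0.0164) in SFN-treated WT cells, and the difference between the genotypes did not pass the test (log2 fold change -1.92 ± 0.45 SE, adjusted p = 0.174). Mir22hg was the host that stayed below its start. It lay at 36.2 and 38.7 CPM in isosmotic DMSO-treated WT cells, 4.88 and 5.10 after 1 h and 16.4 and 15 after 6 h. With SFN its 6 h values of 16.4 and 16.3 CPM were below the isosmotic 27.1 and 27.4 CPM (log2 fold change -0.50 ± 0.16 SE, adjusted p = 0.0177), a call that was lost when any 1 of the 4 libraries was left out. Snhg20, which also holds a snoRNA, and Alkbh1, a demethylase of nucleic acids, lay at 17.6% and 40.2% of their isosmotic means at 1 h with DMSO. Across the 9 miRNA hosts, 9 fell at 1 h with SFN in WT cells (3.58% of all genes tested) and 9 in Nrf2-/- cells (2.81%). At 6 h with SFN 6 were higher (24.7% of all genes) and 1 was lower (22.9%) than before stress.

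**Figure D1:**
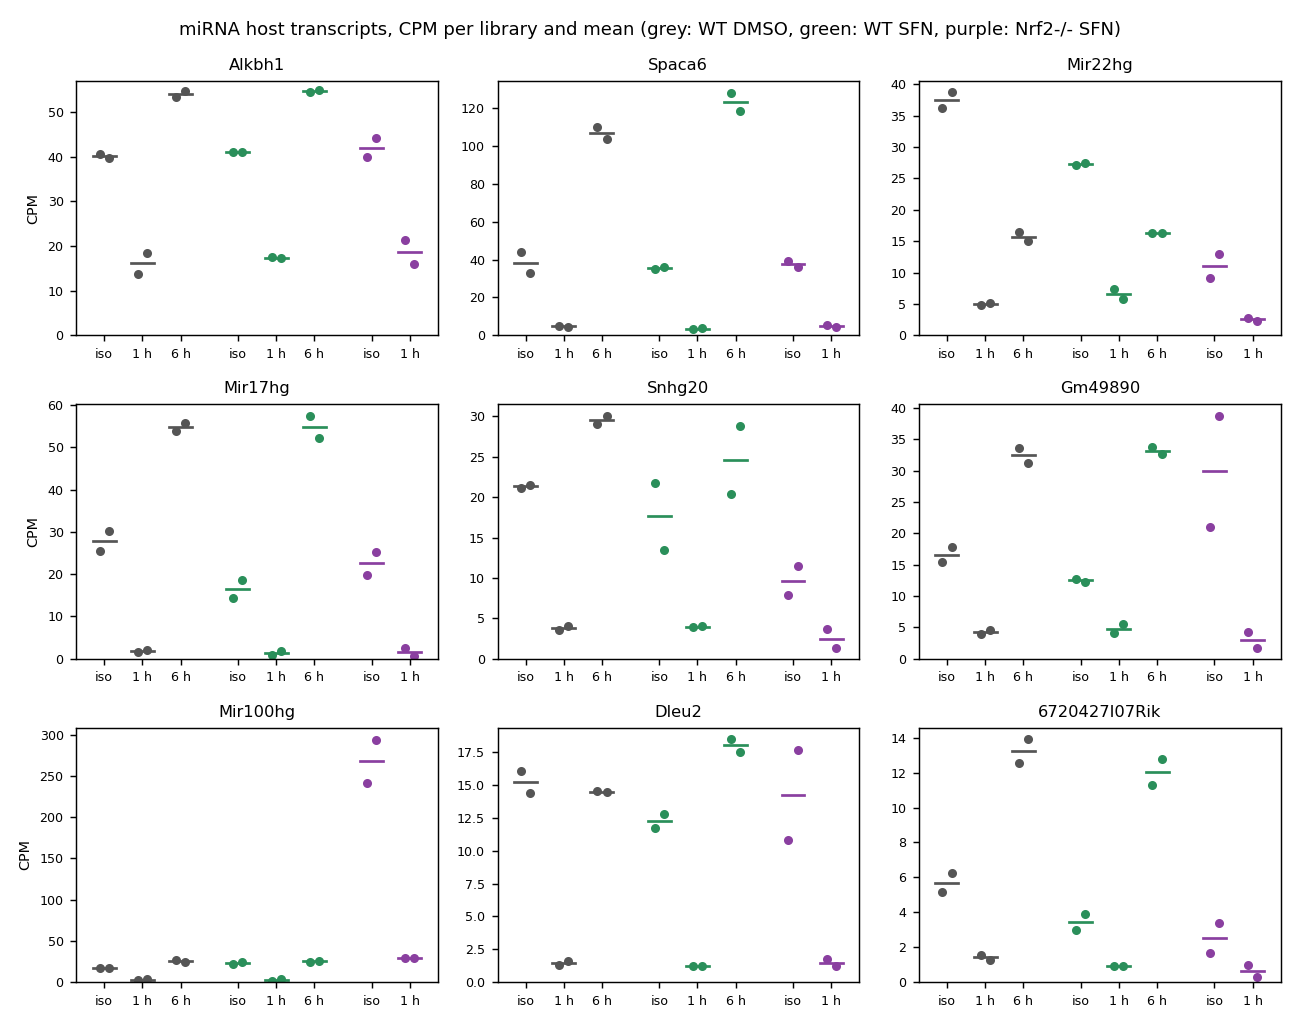
CPM of the 9 miRNA host transcripts in each of the 16 libraries (points) with the group mean (bars), in WT cells with DMSO (grey) or SFN (green) and in Nrf2-/- cells with SFN (purple), before stress (iso) and after 1 h or 6 h at 600 mOsm. In each panel the 1 h points lie under the isosmotic points of the same arm, and the Nrf2-/- isosmotic points of Mir100hg, 241 and 294 CPM, lie far above the WT points.

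The 7 members with a snoRNA in the span (Snhg12, Snhg15, Snhg16, Snhg17, Snhg20, Dancr and 2700038G22Rik) hold 15 snoRNA genes, among them the H/ACA snoRNAs Snora9, Snora16a, Snora26, Snora44 and Snora61 and the C/D snoRNAs Snord93 and Snord99, which guide chemical changes of ribosomal and other RNAs. Snhg4 carries the same type of name, but the tables gave no strand for it and it was not searched. Snhg17 lay at 64.2 and 59.7 CPM in isosmotic DMSO-treated WT cells, 20.2 and 19.2 after 1 h and 65.4 and 68.5 after 6 h. Snhg15 lay at 31.8 and 33.5 CPM in isosmotic DMSO-treated WT cells, 5.82 and 5.83 after 1 h and 24.8 and 28.97 after 6 h. In both, the 6 h libraries were closer to the isosmotic than to the 1 h level.

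With SFN, 6 of the 7 hosts, all members chosen for their fall with DMSO, fell at 1 h (3.58% of all genes tested). Snhg17 fell from 59.7 and 55.8 CPM to 19.9 and 23.4 CPM (log2 fold change -1.38 ± 0.36 SE, adjusted p = 0.0316). Snhg15 fell from 32.4 and 24.5 CPM to 6.12 and 5.68 CPM (log2 fold change -2.23 ± 0.50 SE, adjusted p = 0.0171). Both of these calls were lost when any 1 of the 4 libraries was left out, with log2 values of -1.51 to -1.27 for Snhg17 and -2.42 to -2.03 for Snhg15. Snhg12, at 13.7 and 12.3 CPM before and 6.72 and 5.27 CPM after 1 h, did not pass (log2 fold change -1.09 ± 0.51 SE, adjusted p = 0.242), although its 2 groups did not overlap. In Nrf2-/- cells 4 of the 7 hosts fell (2.81% of all genes tested), and there the 2 libraries at 1 h lay far apart. Snhg15 had 10.9 and 1.94 CPM in them, Snhg17 25.1 and 7.25 CPM and Snhg12 18 and 3.34 CPM. In all 7 hosts replicate 2 was the lower, at a median of 27.3% of replicate 1, against 75.4% over the 86 members and 95.6% over the 10171 genes with 200 counts. The part of this gap between replicates in the Nrf2-/- values was not tested.

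Small RNA hosts made up part of a larger non-coding share. Of the 86 members, 54 were protein-coding and 32 were not, by GENCODE M21 (82 members) or RefSeq (Gm49890, Mir100hg, Snhg16 and Snhg4). The 32 were 37.2% of the members, against 3.65% of the 10060 genes with 200 counts that GENCODE lists, or 367 genes, of which 28 were members. Of the 17 non-coding snoRNA hosts among these expressed genes 6 were members, and of the 204 coding snoRNA hosts 0 were. miRNA hosts were 10.5% of members and 5.44% of the expressed genes that GENCODE lists. The share of members includes Gm49890 and Mir100hg, found in RefSeq alone, and the other share has no such genes. These shares are descriptions of a set chosen for its fall.

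The lowest 1 h mean relative to the start was that of Gm37795, followed by Mir17hg, 5430416N02Rik and Neat1. Gm37795 (chr4:150068539-150070997), an unspliced transcript of uncertain class, lay at 8.80 and 10.1 CPM in isosmotic DMSO-treated WT cells, 0.481 and 0.364 after 1 h and 20.1 and 22.9 after 6 h. The counts behind its 1 h values were 20 and 13, against 355 and 446 before stress. With SFN it fell from 8.13 and 7.88 CPM to 0.572 and 0.259 CPM (log2 fold change -4.23 ± 0.28 SE, adjusted p = 1.24e-06). The fall in Nrf2-/- cells was from 9.37 and 10.2 CPM to 0.252 and 0.109 CPM (log2 fold change -5.65 ± 0.32 SE, adjusted p = 3.66e-07). After 6 h it stood above the isosmotic level with SFN (log2 fold change 1.27 ± 0.21 SE, adjusted p = 0.000154).

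Neat1 (chr19:5824708-5845478) is the unspliced nuclear RNA that builds paraspeckles, and it had the highest isosmotic CPM among the non-coding members. It lay at 395 and 398 CPM in isosmotic DMSO-treated WT cells, 29.3 and 30.9 after 1 h and 209.6 and 228 after 6 h, so its 1 h mean was 7.59% and its 6 h mean 55.2% of the start. With SFN it fell from 269 and 223 CPM to 26.1 and 25.8 CPM (log2 fold change -3.21 ± 0.40 SE, adjusted p = 0.000633) and stood at 205 and 250.1 CPM after 6 h, which did not differ from the isosmotic level by the test (log2 fold change 0.12 ± 0.37 SE, adjusted p = 0.813). Neat1 in Nrf2-/- cells fell from 245 and 283 CPM to 65.5 and 19.2 CPM (log2 fold change -2.57 ± 0.39 SE, adjusted p = 0.00274). The 1 h means of the non-coding 5430416N02Rik and Gm43980 were 7.51% and 10.2% of the start, and both fell in both SFN arms.

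The coding members had few exons. Their median exon number was 4, against 10 for the 9691 coding genes with 200 counts, and 14 of the 54 (25.9%) had 1 or 2 exons, against 5.15%. Their median mRNA length was 2987 bases, against 3073. The AU-rich word TATTTAT stood in the 3'UTR of 26 of the 54 (48.1%, against 29.2%), and among 3'UTRs of the members' middle lengths in 50% against 31.9% of 2937 genes. The shorter word ATTTA stood in 75.9% against 67.3%, and in the middle lengths in 76.9% against 81.9%. A control word of the same base composition, TTATTAT, stood in 14.8% against 15.5%. Members with the AU-rich word included Clcf1, Lif, Pim1, Phlda1, Ptger4, Spry2, Spry4, Has2 and Stk40, each with at least 2 copies. The words were searched on the transcript strand, copies may overlap, and a match is not a site of regulation.

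Of the 86 members, 56 had a promoter window in RefSeq (GRCm38.p6), 250 bases before to 50 after the annotated start. The palindrome TGACGTCA, the binding word of the cAMP-response factor CREB, stood in 6 of them (10.7%), against 3.58% of 8005 promoters of expressed genes and 1.88% of all 27025. The shown 30-base windows hold the palindrome in capitals and are written along the gene's strand. They lie from -166 to 35 bases from the start. The CArG box of serum response factor was in 0 of the 56 windows (1.29% of expressed promoters), and GGAATG on either strand, the word of TEAD factors, in 8 (14.3%, against 11.2%).
Btg2, chr1:134079303-134079332, minus strand: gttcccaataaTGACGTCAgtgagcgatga
Lrrc8a, chr2:30237650-30237679, plus strand: gcgtccggccgTGACGTCActtccggggcg
Nr6a1, chr2:38926412-38926441, minus strand: cgtggcagcggcgcgTGACGTCAgaggagg
Ccnl1, chr3:65958249-65958278, minus strand: tgtcggcgtggTGACGTCAgggcggaagcg
Areg, chr5:91139527-91139556, plus strand: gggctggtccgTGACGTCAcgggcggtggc
Snhg15, chr11:6528830-6528859, minus strand: cccaggggcgcTGACGTCAgtgtcttggag

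The 6 genes with the palindrome did not share a course. Btg2, an antiproliferative factor that speeds mRNA deadenylation, lay at 128 and 128 CPM in isosmotic DMSO-treated WT cells, 16.2 and 20.6 after 1 h and 33.9 and 31.4 after 6 h. Nr6a1, an orphan nuclear receptor, lay at 14.6 and 13.3 CPM in isosmotic DMSO-treated WT cells, 5.10 and 4.34 after 1 h and 42.8 and 40.2 after 6 h. Areg, a ligand of the EGF receptor, lay at 10.2 and 11.1 CPM in isosmotic DMSO-treated WT cells, 3.90 and 3.45 after 1 h and 8.28 and 6.87 after 6 h. With SFN, Btg2 (log2 fold change -1.04 ± 0.17 SE, adjusted p = 0.00122), Nr6a1 (log2 fold change -1.74 ± 0.13 SE, adjusted p = 2.31e-06), Ccnl1 and Snhg15 fell at 1 h, and Areg (0.27 ± 0.27 (adjusted p = 0.654)) and Lrrc8a (-0.47 ± 0.25 (adjusted p = 0.309)), a subunit of the volume-regulated anion channel, did not pass the test. Lrrc8a shares 66.2% of its exon length with other genes on its strand, so its counts are uncertain.

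A group of coding members linked to splicing and RNA export, put together after their values were seen, comprised the cyclins Ccnl1 and Ccnl2, partners of kinases in splicing speckles, and Leng8. Ccnl1 (chr3:65946151-65958249) lay at 125 and 133 CPM in isosmotic DMSO-treated WT cells, 60.2 and 59.7 after 1 h and 213 and 199.5 after 6 h. Leng8 lay at 107 and 95.7 CPM in isosmotic DMSO-treated WT cells, 45.8 and 46.9 after 1 h and 181 and 179.5 after 6 h. Ccnl2 lay at 119 and 115 CPM in isosmotic DMSO-treated WT cells, 55.6 and 53.6 after 1 h and 155 and 156 after 6 h. In these 3 genes both 6 h libraries were above both isosmotic libraries. With SFN at 1 h, the log2 fold changes were -0.88 ± 0.16 (adjusted p = 0.00358) for Ccnl1, -1.43 ± 0.34 (adjusted p = 0.0233) for Ccnl2 and -1.72 ± 0.13 (adjusted p = 2.5e-06) for Leng8, and in Nrf2-/- cells -1.13 ± 0.16 (adjusted p = 0.000787), -1.32 ± 0.34 (adjusted p = 0.0403) and -1.52 ± 0.13 (adjusted p = 1.2e-05). The WT call of Ccnl1 was lost without isosmotic replicate 2 (log2 -1.0 to -0.74 with 1 library left out). At 6 h with SFN, Ccnl1 and Leng8 were above the isosmotic level (log2 1.46 ± 0.16 (adjusted p = 5.3e-06) and 0.76 ± 0.13 (adjusted p = 0.000199)).

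Ccn2 (chr10:24595442-24598683), a matricellular protein and classic target of the Hippo effector YAP, had the highest isosmotic CPM of the members. It lay at 818 and 879 CPM in isosmotic DMSO-treated WT cells, 297 and 288 after 1 h and 180.5 and 181 after 6 h, so it was lower still at 6 h. With SFN it was already at 277 and 343 CPM before stress, at 316 and 322 CPM at 1 h and at 231 and 225 CPM at 6 h. Neither the 1 h change with SFN (log2 fold change 0.07 ± 0.12 SE, adjusted p = 0.831) nor that in Nrf2-/- cells (log2 fold change -0.21 ± 0.12 SE, adjusted p = 0.395) passed the test.

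F3, tissue factor, which starts coagulation and is another YAP target, lay at 485 and 473 CPM in isosmotic DMSO-treated WT cells, 200.1 and 194 after 1 h and 107 and 103 after 6 h. With SFN it rose from 168 and 167 CPM to 208 and 205 CPM at 1 h (log2 fold change 0.33 ± 0.10 SE, adjusted p = 0.0494) and fell from 1 h to 6 h, to 125 and 123 CPM (log2 fold change -0.53 ± 0.10 SE, adjusted p = 0.000616). The rise was lost when any 1 of the 4 libraries was left out, with log2 values of 0.32 to 0.34. Nuak2, a kinase of the same pathway, lay at 71.5 and 72.1 CPM in isosmotic DMSO-treated WT cells, 33.8 and 35.2 after 1 h and 28.5 and 35.1 after 6 h. With SFN its 1 h change was -0.27 ± 0.12 (adjusted p = 0.203) on the log2 scale. Of the 32 genes tested on the Hippo list, which these 3 belong to, 1 rose and 0 fell at 1 h with SFN (5.94% and 3.58% of all genes), with a median log2 value of 0.10, against 0.02 over all genes tested.

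Cldn4, a tight junction protein of the collecting duct encoded by 1 exon, lay at 359 and 396 CPM in isosmotic DMSO-treated WT cells, 118 and 125 after 1 h and 438 and 451 after 6 h. With SFN the order was another: it rose from 90.1 and 86.9 CPM to 122 and 121 CPM at 1 h (log2 fold change 0.49 ± 0.13 SE, adjusted p = 0.0255) and to 461 and 509 CPM at 6 h (log2 fold change 2.69 ± 0.14 SE, adjusted p = 2.11e-09, against isosmotic). The 1 h rise was lost when any 1 of the 4 libraries was left out (log2 0.47 to 0.51). The SFN 1 h libraries lay at about the level of the DMSO 1 h libraries, and the isosmotic libraries of the 2 pretreatments differed.

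Secreted ligands and receptors among the members included Lif and Clcf1, both cytokines of the interleukin-6 family, Areg, Adm (adrenomedullin, a vasodilator peptide) and Ptger4, a receptor of prostaglandin E2. Lif lay at 179.5 and 171 CPM in isosmotic DMSO-treated WT cells, 46.5 and 53.3 after 1 h and 92.97 and 93.9 after 6 h. With SFN, Lif was at 56.2 and 52.2 CPM before stress and 56.3 and 58.5 CPM at 1 h (log2 fold change 0.12 ± 0.13 SE, adjusted p = 0.722), and it rose to 111 and 114 CPM at 6 h (log2 fold change 1.29 ± 0.14 SE, adjusted p = 3.11e-06, against isosmotic). Ptger4 had 112 and 107 CPM before stress and 27.5 and 26.4 CPM at 1 h with DMSO, and 38.4 and 41.1 and 37.4 and 37.3 CPM with SFN.

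Clcf1 differed from Lif. It lay at 269 and 276 CPM in isosmotic DMSO-treated WT cells, 92.5 and 91.7 after 1 h and 117 and 119 after 6 h. With SFN it fell from 232 and 241 CPM to 105 and 110.4 CPM (log2 fold change -1.10 ± 0.20 SE, adjusted p = 0.00377) and was still below its start at 6 h (123 and 136 CPM, log2 fold change -0.63 ± 0.20 SE, adjusted p = 0.0196). That 6 h call was lost when any 1 of the 4 libraries was left out. Clcf1 in Nrf2-/- cells fell from 159 and 184 CPM to 70.6 and 34.5 CPM (log2 fold change -1.63 ± 0.21 SE, adjusted p = 0.00033). Of the 55 tested genes on the list of EGF-family and other ligands, which holds Lif and Areg, 8 rose and 1 fell at 1 h with SFN (5.94% and 3.58% of all genes), and 26 rose and 10 fell at 6 h relative to the start (24.7% and 22.9%).

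The list of feedback and growth response genes of MAP kinase signalling held 7 members, Ier2, Btg2, Phlda1, Trib1, Arc, Spry2 and Spry4. Trib1, a pseudokinase, lay at 92.4 and 85.8 CPM in isosmotic DMSO-treated WT cells, 24.8 and 26 after 1 h and 67.4 and 54.5 after 6 h. Ier2, an early response gene, lay at 165 and 183 CPM in isosmotic DMSO-treated WT cells, 52.4 and 58.5 after 1 h and 65.9 and 63.2 after 6 h. Phlda1 lay at 95.6 and 115 CPM in isosmotic DMSO-treated WT cells, 43.02 and 41.1 after 1 h and 58 and 52.1 after 6 h. Spry2, which dampens receptor tyrosine kinases, lay at 39.6 and 39.6 CPM in isosmotic DMSO-treated WT cells, 14.99 and 16.3 after 1 h and 54.6 and 45.96 after 6 h. At 6 h with DMSO, Ier2 was not far above its 1 h level and Spry2 above its isosmotic level.

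Arc, known from neurons as a capsid-like synaptic protein, had the widest range in this group. It lay at 67.4 and 61.1 CPM in isosmotic DMSO-treated WT cells, 18.8 and 20.7 after 1 h and 289 and 261 after 6 h. With SFN it rose from 16.03 and 13.6 CPM to 26.8 and 26.98 CPM at 1 h (log2 fold change 0.90 ± 0.11 SE, adjusted p = 0.000146), with log2 values of 0.78 to 1.01 when 1 library was left out, and stood at 356 and 354 CPM at 6 h (log2 fold change 4.82 ± 0.12 SE, adjusted p = 3.63e-12). The Nrf2-/- libraries of Arc were at 20.9 and 22.2 CPM and 20.8 and 22.7 CPM (log2 fold change 0.10 ± 0.11 SE, adjusted p = 0.671). With SFN at 1 h, Btg2 and Ier2 fell (Ier2 log2 fold change -0.55 ± 0.16 SE, adjusted p = 0.0394, lost without any 1 of the 4 libraries), Arc rose, and Phlda1 (-0.07 ± 0.14 (adjusted p = 0.849)), Trib1 (-0.26 ± 0.15 (adjusted p = 0.378)), Spry2 (-0.40 ± 0.21 (adjusted p = 0.298)) and Spry4 (-0.61 ± 0.21 (adjusted p = 0.0959)) did not pass. Of the 37 genes on the list, 7 rose and 4 fell (5.94% and 3.58% of all genes), with a median log2 value of -0.02.

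From the Notch and Wnt list, Hes1, a Notch target and repressor, Lfng, a glycosyltransferase that tunes Notch receptors, and Fzd5, a Wnt receptor, were members. Hes1 lay at 94.6 and 117 CPM in isosmotic DMSO-treated WT cells, 44 and 47.2 after 1 h and 39.4 and 41.9 after 6 h. Lfng lay at 71.2 and 73.4 CPM in isosmotic DMSO-treated WT cells, 28.7 and 29.2 after 1 h and 28.6 and 30.3 after 6 h, so both were low at 6 h too. Fzd5 lay at 66.2 and 56.7 CPM in isosmotic DMSO-treated WT cells, 23.6 and 25.2 after 1 h and 439 and 399 after 6 h, which put its 6 h mean at 682% of the start. With SFN it stood at 33.5 and 33.2, 25.6 and 24.8 and 453 and 446 CPM (log2 fold change 3.99 ± 0.16 SE, adjusted p = 2.94e-10, 6 h against isosmotic). At 1 h with SFN, Lfng fell (log2 fold change -0.95 ± 0.14 SE, adjusted p = 0.000659) and Hes1 (0.31 ± 0.18 (adjusted p = 0.359)) and Fzd5 (-0.37 ± 0.15 (adjusted p = 0.145)) did not pass. Of the 44 genes tested on the list, 2 rose and 2 fell (5.94% and 3.58% of all genes).

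Socs1, which shuts off cytokine receptors, had the lowest 1 h share of the coding members. It lay at 17.7 and 16.1 CPM in isosmotic DMSO-treated WT cells, 1.68 and 1.34 after 1 h and 12.1 and 11.1 after 6 h. With SFN Socs1 fell from 11.4 and 9.12 CPM to 2.29 and 2.18 CPM (log2 fold change -2.16 ± 0.20 SE, adjusted p = 1.39e-05). The fall in Nrf2-/- cells was from 6.44 and 5.33 CPM to 1.93 and 2.57 CPM (log2 fold change -1.29 ± 0.20 SE, adjusted p = 0.00127). Map3k14, the kinase NIK of non-canonical NF-κB signalling, went on to lower levels. It lay at 68.3 and 61.1 CPM in isosmotic DMSO-treated WT cells, 29.4 and 28.3 after 1 h and 13.7 and 16.97 after 6 h. With SFN it was at 68.7 and 67.5, 23.7 and 23.1 and 13.5 and 16.2 CPM. It fell at 1 h with SFN (log2 fold change -1.51 ± 0.14 SE, adjusted p = 1.56e-05), and at 6 h it was the member furthest below its start (log2 fold change -1.97 ± 0.14 SE, adjusted p = 8.3e-08). Pim1, a kinase gene with AU-rich words, went the other way and lay at 36.8 and 34.3 CPM in isosmotic DMSO-treated WT cells, 13.6 and 14.1 after 1 h and 177 and 163 after 6 h. Of the 36 genes on the NF-κB and cytokine list, which holds Socs1, 3 rose and 3 fell at 1 h with SFN (5.94% and 3.58% of all genes).

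Among transcription regulators, Bhlhe40, a repressor in the circadian clock, lay at 253 and 235 CPM in isosmotic DMSO-treated WT cells, 60.96 and 61.3 after 1 h and 107 and 105 after 6 h. With SFN it was at 61.3 and 68.99, 54.5 and 57.6 and 129.5 and 134 CPM. Irf2bp2, a corepressor, lay at 115 and 108 CPM in isosmotic DMSO-treated WT cells, 47.7 and 46.6 after 1 h and 139 and 137 after 6 h. Taf7, a subunit of TFIID, fell with SFN from 6.44 and 7.84 CPM to 3.13 and 2.88 CPM (log2 fold change -1.22 ± 0.21 SE, adjusted p = 0.00231). Arid3a fell as well (log2 fold change -0.86 ± 0.16 SE, adjusted p = 0.0039), and Bhlhe40 (-0.18 ± 0.15 (adjusted p = 0.57)), Irf2bp2 (-0.16 ± 0.13 (adjusted p = 0.545)) and Arid5a (-0.08 ± 0.16 (adjusted p = 0.87)) did not pass. The call of Arid3a was lost without 1 h replicate 2 (log2 -0.97 to -0.77 with 1 library left out). On the list of epithelial and developmental factors 9 of 90 tested genes rose and 2 fell, and on that of the clock 0 of 19 rose and 1 fell. Over all genes tested 5.94% rose and 3.58% fell in the same comparison, 1 h with SFN.

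Kctd11 and Trim6 were the members on the list of ubiquitin ligases. Kctd11, an adaptor encoded by 1 exon, lay at 90.7 and 82.4 CPM in isosmotic DMSO-treated WT cells, 20.9 and 20.3 after 1 h and 28.9 and 29.5 after 6 h. With SFN Kctd11 fell from 41.1 and 40.5 CPM to 26.5 and 24.7 CPM (log2 fold change -0.64 ± 0.11 SE, adjusted p = 0.00246). Trim6 lay at 6.67 and 7.46 CPM in isosmotic DMSO-treated WT cells, 2.02 and 2.21 after 1 h and 1.66 and 1.57 after 6 h. With SFN it was at 5.47 and 7.78, 1.44 and 1.92 and 2.36 and 1.75 CPM, with a wide gap between the isosmotic libraries. Of the 372 genes tested on that list, 14 rose and 8 fell at 1 h with SFN (5.94% and 3.58% of all genes). Of other lists that hold a member, general transcription (84 tested) had 4 higher and 3 lower, RNA turnover (44) 1 and 2, p53 and growth arrest (37) 2 and 3, and TGF-β and BMP (37) 2 and 2. On the list of non-coding symbols, which holds 29 members, 308 of 5008 tested genes rose and 307 fell. The same shares of all genes, 5.94% and 3.58%, apply to each of these lists.

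**Figure D2:**
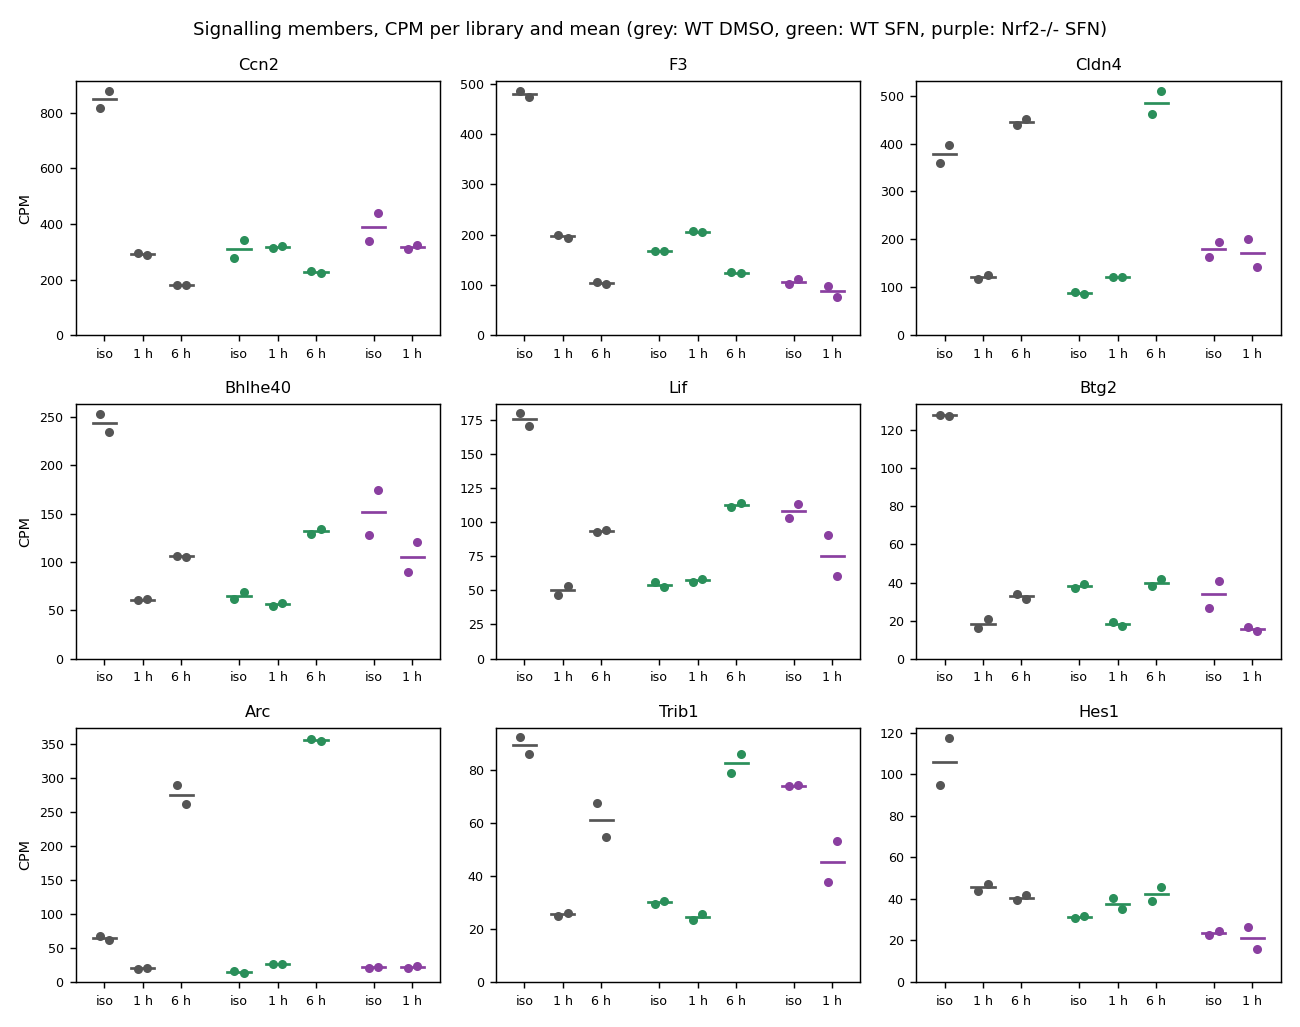
CPM of 9 signalling and junction members in each library (points) with the group mean (bars), in WT cells with DMSO (grey) or SFN (green) and in Nrf2-/- cells with SFN (purple), before stress (iso) and after 1 h or 6 h at 600 mOsm. In each panel the isosmotic DMSO points are above the isosmotic SFN points, and the WT points at 1 h lie close together with either pretreatment. The 9 were picked, and all are among the 19 members with an isosmotic SFN mean at or below 50% of DMSO. The first pattern thus follows from the choice and does not hold for every signalling member, such as Map3k14.

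Tested in libraries that the rule had not used, 59 of the 86 members fell at 1 h in SFN-treated WT cells and 3 rose (F3, Cldn4 and Arc), by edgeR's quasi-likelihood test with adjusted p under 0.05. Over all 19509 genes tested 3.58% fell and 5.94% rose. The median log2 fold change was -1.19 over the members, -2.01 over the 32 non-coding members and -0.60 over the 54 coding members, against 0.02 over all genes tested. Of the non-coding members 31 fell and Snhg12 did not pass, and of the coding members 28 fell, 3 rose and 23 did not pass. By the CPM rule itself, 79 members had 200 counts in both SFN isosmotic libraries and 40 members lay at or below 50% at 1 h, against 0.866% of 10049 genes.

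The SFN libraries before stress were lower for many members than the DMSO libraries that chose them. The median SFN level was 75.1% of the DMSO level before stress (coding 61.7%, non-coding 81.6%), against 103% over the genes with 200 counts, and at 1 h it was 101.9%. By the means, 19 members were at or below 50% of DMSO, among them Ccn2, F3, Cldn4, Bhlhe40, Lif, Btg2, Arc and Hes1, and the 19 were all coding. Of these 19, 2 fell (Btg2 and Kctd11), 3 rose and 14 did not pass at 1 h with SFN, and of the other 67 members 57 fell and 10 did not pass. These counts share the SFN isosmotic libraries with the test, and the isosmotic DMSO libraries were used to choose high values, so the comparison was not tested. In 7 members, F3, Cldn4, Lif, Hes1, Arc, Areg and Adm, both SFN 1 h libraries were above both SFN isosmotic libraries, against 20.5% of the 10171 genes.

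**Figure D3:**
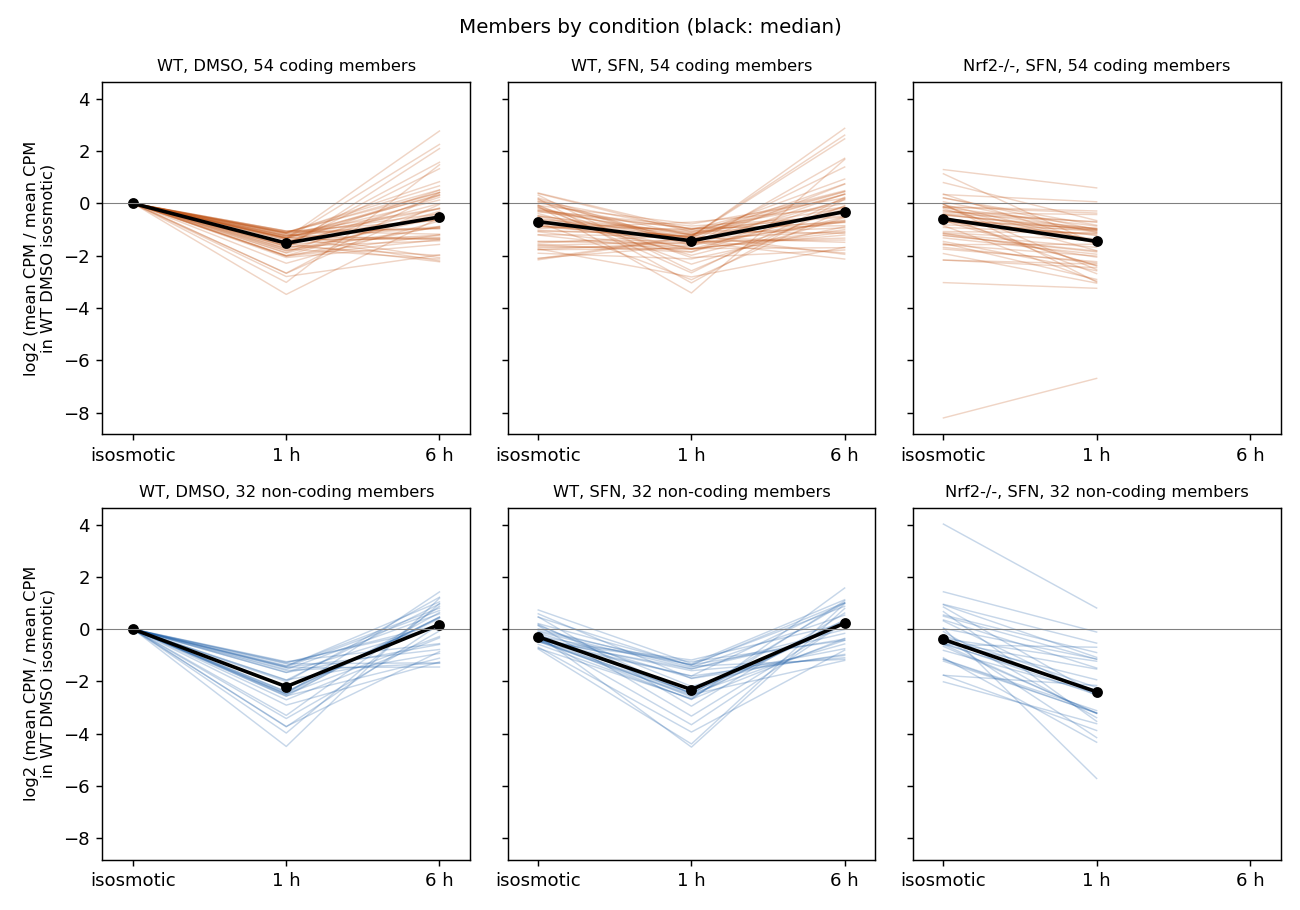
Mean CPM of each member relative to its own mean in isosmotic DMSO-treated WT cells, on a log2 axis, by time in the 3 arms, for 54 coding members (top) and 32 non-coding members (bottom). Thin lines are members and the black line is the median, the DMSO 1 h points chose the members, and the SFN medians start below 0 and reach 1 h at about the same level as with DMSO.

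In Nrf2-/- cells, 54 members fell at 1 h and 0 rose, against 2.81% and 4.36% of all genes tested, with a median log2 fold change of -1.06 (coding -0.53, non-coding -1.89). The 54 comprised 28 of the 32 non-coding and 26 of the 54 coding members. Between the genotypes 49 members fell in both arms, which was 83.1% of the WT list and 90.7% of the Nrf2-/- list, and 22 fell in neither. Over all genes tested, 1.8% fell in both arms, 1.78% in WT cells alone and 1.01% in Nrf2-/- cells alone. Irf2bp2, Trib1, Nuak2, Has2 and Mob3c were called in Nrf2-/- cells and not in WT cells, and 10 members, such as Ier2, Kctd11 and Snhg15, the reverse. The Nrf2-/- call of Trib1 was lost without either isosmotic library, that of Has2 without isosmotic replicate 2, and that of Nuak2 without either isosmotic library or 1 h replicate 2. The CPM rule was met by 28 members in this arm (74 had 200 counts), against 0.572% of 9786 genes. With the 4 Nrf2-/- libraries alone in the fit, 4 members passed, and the 2 libraries at 1 h differed as described.

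The difference between the genotypes in the 1 h change was tested directly, and 0 members had a smaller and 0 a larger fall in Nrf2-/- cells by edgeR (0.0615% of all genes in each direction). At an unadjusted p under 0.05 there were 18 members, and DESeq2 called 2 with a smaller and 3 with a larger fall. The shares of all genes at these settings are not given here, so these counts are not read as a difference between genotypes. Differences ran from -1.92 (Gm49890) to 1.25 (Gm43980) on the log2 scale, with a median of -0.01 and a median SE of 0.28, and the lowest adjusted p was 0.0796 for Arc. Without replicate 1 of the Nrf2-/- 1 h pair, 9 members had a smaller and 17 a larger fall, and without replicate 2 the counts were 10 and 7.

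**Figure D4:**
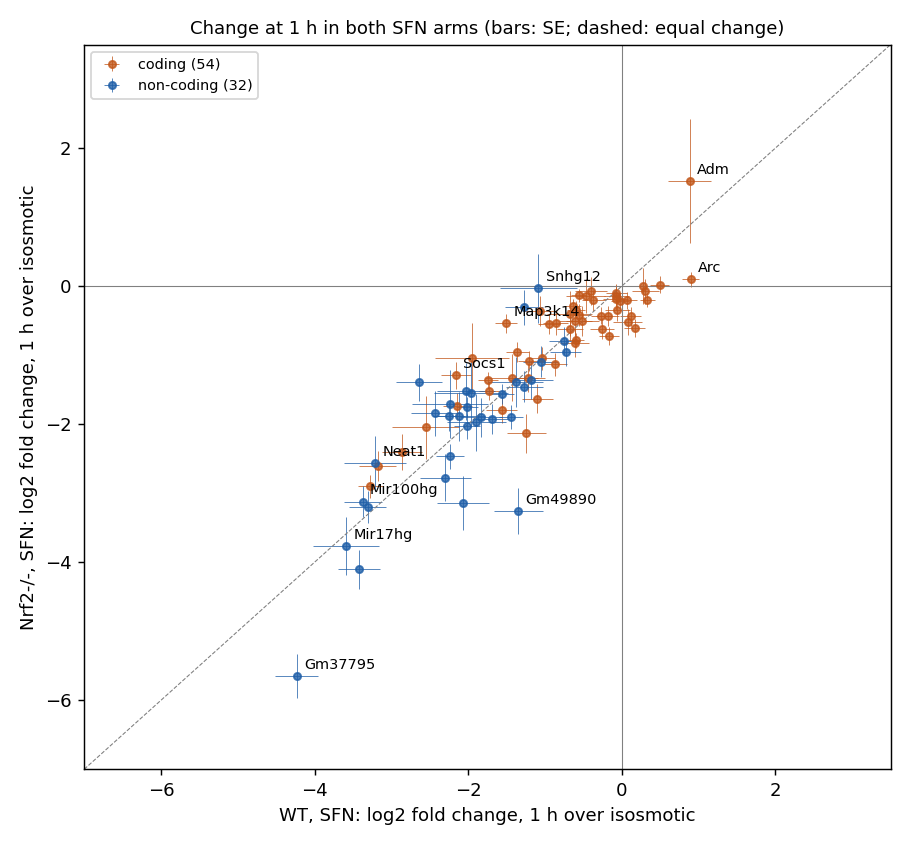
Log2 fold change at 1 h over isosmotic in SFN-treated WT cells (horizontal axis) against SFN-treated Nrf2-/- cells (vertical axis) for the 86 members, coding (orange) or non-coding (blue), with bars of 1 SE. Most points lie at the lower left, near the dashed line of equal change, with Gm37795 lowest at -4.23 and -5.65 and Arc at 0.90 and 0.10.

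Before stress some members differed between the genotypes, in both directions. With SFN, 26 members were higher and 16 lower in Nrf2-/- than in WT cells, against 15.7% and 18.4% of all genes tested. The number lower was near the share of all genes and is not read as a trait of the members. The largest positive difference was that of Mir100hg (log2 fold change 3.59 ± 0.22 SE, adjusted p = 1.72e-08). Has2, which makes hyaluronan, a matrix polymer of the renal medulla, was at 103 and 121 CPM in Nrf2-/- and 13.5 and 16.6 CPM in WT cells (log2 fold change 2.94 ± 0.14 SE, adjusted p = 1.18e-09), and at 1 h it fell in Nrf2-/- cells to 62.7 and 75.3 CPM (log2 fold change -0.61 ± 0.13 SE, adjusted p = 0.0128).

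On the lower side, Adm had 2 and 0 counts in the Nrf2-/- isosmotic libraries and 63 and 103 counts in the WT libraries (adjusted p = 8.43e-07), too few for a fold. Among the others, Dancr (log2 -1.49 ± 0.37 (adjusted p = 0.0063)), Cfap157 (-1.44 ± 0.30 (adjusted p = 0.00187)), a protein of cilia, and Map3k14 (-1.34 ± 0.14 (adjusted p = 3.38e-06)) were lower too. The call of Dancr was lost without isosmotic replicate 1 of either genotype (log2 -2.05 to -1.09 with 1 library left out). Without Nrf2-/- isosmotic replicate 2 the number higher was 17, and without Nrf2-/- isosmotic replicate 1 or WT isosmotic replicate 1 the number lower was 9. A difference between these lines for another reason cannot be told apart from one that depends on Nrf2.

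By 6 h with DMSO, the members had gone separate ways. In 38 of the 86, both 6 h libraries were at or above the lower isosmotic library, against 30% of genes with 200 counts, and in 34 both were above the higher one, against 21.9%. In 19 both 6 h libraries were at most 50% of the lower isosmotic library, against 12.4%, and the other 29 lay between. Back at the starting level were 19 of the 32 non-coding and 19 of the 54 coding members, and low were 3 and 16. The median 6 h level was 84.3% of the isosmotic level (coding 69.8%, non-coding 113%), against 78.2% over the genes with 200 counts. CPM of most genes were thus lower at 6 h, and with library sizes scaled by TMM, which centres most genes near no change, 43 members were back at the starting level. By CPM, both 6 h libraries were above both 1 h libraries in 74 members and below in 6 (24.5% and 66.5% of genes with 200 counts), among them Ccn2, F3, Map3k14 and Hes1. After TMM scaling the log2 change from 1 h to 6 h was -0.47 for Ccn2, -0.69 for F3 and -0.69 for Map3k14. For Hes1 it was 0.06 ± 0.18 SE, so its lower 6 h level was seen in CPM only.

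The same times could be tested with SFN, where 73 members rose from 1 h to 6 h (20.9% of all genes) and 2 fell, F3 and Map3k14 (21.7%). The fall of Map3k14 (-0.46 ± 0.14 (adjusted p = 0.017) on the log2 scale) was lost without either 1 h library or 6 h replicate 1. The median log2 fold change was 1.74 over the members (coding 1.27, non-coding 2.56) and 0.00 over all genes. Relative to the isosmotic libraries, 42 members were higher at 6 h and 7 lower, against 24.7% and 22.9% of all genes, and the median was 0.51 against 0.09. The 5 members furthest above the start were Arc (4.82 ± 0.12), Pim1 (4.04 ± 0.13), Fzd5 (3.99 ± 0.16), Cldn4 (2.69 ± 0.14) and the non-coding Gm21781 (2.22 ± 0.19). The 7 below it were Map3k14, Trim6 (-1.45 ± 0.47 (adjusted p = 0.0206)), 4930579G18Rik (-1.37 ± 0.27 (adjusted p = 0.000717)), 4933439C10Rik (-1.31 ± 0.30 (adjusted p = 0.00217)), Clcf1, Mir22hg and Stk40, a number that was 3 or 4 when 1 of the 4 libraries was left out and 11 in a fit of the 12 WT libraries.

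**Figure D5:**
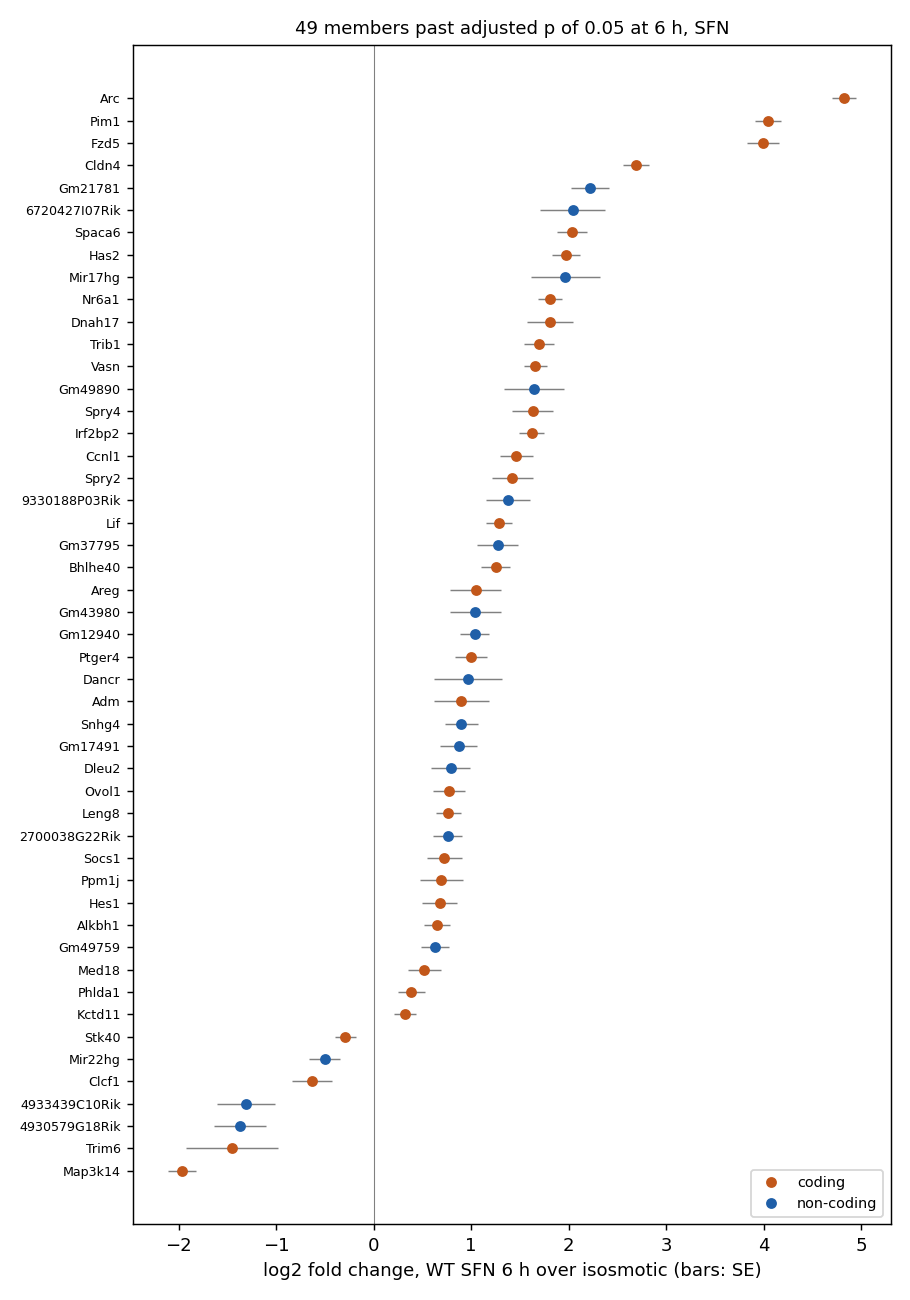
Log2 fold change at 6 h over isosmotic in SFN-treated WT cells for the 49 members past an adjusted p of 0.05, with bars of 1 SE, coding (orange) or non-coding (blue). The 42 members above 0 are led by Arc at 4.82, and the 7 below 0 end with Map3k14 at -1.97.

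The 2 pretreatments were compared at 6 h, in libraries of which neither had been used by the rule. By edgeR 0 members were higher and 0 lower with SFN than with DMSO, against 0.041% and 0% of all genes tested. At an unadjusted p under 0.05 there were 10 members, DESeq2 called 1 higher and 0 lower, and a fit of the 4 compared libraries called 7 higher. The shares of all genes at these settings are not given here, so these counts are not read as a difference between pretreatments. Differences ran from -0.38 (Gm37795) to 0.57 (Kctd11, log2 fold change 0.57 ± 0.11 SE, adjusted p = 0.233) with a median of 0.11 and a median SE of 0.19. The share of all counts in the 86 members was 0.609% and 0.612% before stress with DMSO, 0.202% and 0.204% at 1 h, and 0.503% and 0.492% at 6 h. With SFN it was 0.355% and 0.358%, 0.214% and 0.213%, and 0.540% and 0.559%, and in Nrf2-/- cells 0.347% and 0.404% before stress and 0.211% and 0.183% at 1 h.

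A few members carry names of abundant housekeeping genes at low counts. Rps10, a ribosomal protein gene with many processed copies, lay at 10.8 and 13.03 CPM in isosmotic DMSO-treated WT cells, 2.02 and 1.74 after 1 h and 16.01 and 15.8 after 6 h. Cox17, a copper chaperone, lay at 6.89 and 5.80 CPM in isosmotic DMSO-treated WT cells, 1.03 and 0.953 after 1 h and 5.33 and 7.04 after 6 h. Dpm1, a mannosyl transferase, lay at 8.33 and 5.46 CPM in isosmotic DMSO-treated WT cells, 1.66 and 2.44 after 1 h and 6.49 and 5.69 after 6 h. Each fell at 1 h with SFN (log2 -2.55 ± 0.44 (adjusted p = 0.0025), -3.18 ± 0.24 (adjusted p = 2.33e-06) and -2.86 ± 0.26 (adjusted p = 1.2e-05)). How reads shared between copies or overlapping genes were counted is not stated, so it is uncertain which transcript these counts came from, and the same holds for Gm12940, which shares 63.8% of its exon length with genes on the opposite strand.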

How the data were processed

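RNA sequencing was performed in mIMCD3 cells, 2 libraries for each of 8 groups taken from the sample labels. The authors aligned reads to mm10, sorted the alignments with SAMtools and used featureCounts to obtain 1 count per gene symbol. The deposited values are these raw counts, without normalization. The paper's methods name Hisat2 as the aligner and the submitters' processing notes name Bowtie2, and no version, annotation or strandedness is given in the sources used here, nor how shared reads were treated. Of 2 libraries, 2 and 3 lines that named no gene were dropped. Among counts of 1 to 10, between 58.0% and 68.5% were even, so single counts need not be separate fragments.

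CPM values were computed here from the totals of the files, and the members came from CPM and counts alone. Tests used edgeR 4.0.16 in R 4.3.3, the robust quasi-likelihood F-test after TMM normalization and the default filter on low counts, on 19509 genes in all 16 libraries with 1 coefficient per group and Benjamini-Hochberg adjustment over all genes (threshold 0.05). SE is the log2 fold change over the square root of F. An exact permutation test of 2 against 2 libraries cannot go below p = 0.333 and was not used. The samples' replicate numbers did not pair the libraries (correlation of deviations -0.0794 to 0.123 over 28 pairs of groups, 1 over 0.1).

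The members and gene lists were chosen with earlier results of these data known. The text names the 10 members with the highest isosmotic CPM, the 10 with the lowest 1 h ratio, up to 6 on each role list, the 5 furthest in each direction of the tests at 6 h and between genotypes, and up to 5 not called at 1 h in each SFN arm. Other members were named after their values were seen. Of the members and lists covered by this rule, 1 member and 1 list are not reported here. Class, position and hosts of small RNAs came from GENCODE M21 and RefSeq on GRCm38, matched by symbol, and the release the authors used may differ. In simulated counts, 199 of 200 changed genes of the SFN 1 h comparison were called (99.5%). The simulation gave all libraries the same spread, and the changes were large and in genes with a mean of at least 200 counts. The real groups differed in spread, up to 0.348 in Nrf2-/- cells at 1 h, so this share is not the sensitivity in the data. The alternatives were DESeq2 1.42.0, RLE size factors, other filters, fewer libraries, a replicate block and leaving out each library. The fit without both Nrf2-/- 1 h libraries and the CPM rule in the SFN arms were added after the data were seen.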

Additional observations from a re-analysis of the deposited data

Results flagged for a closer look

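In 3 members the direction at 1 h differed between the pretreatments. Both DMSO 1 h libraries lay under both isosmotic libraries, as the rule requires, while with SFN the log2 fold change at 1 h was 0.33 for F3, 0.49 for Cldn4 and 0.90 for Arc. The difference between DMSO and SFN was not tested, because the DMSO libraries chose the members. The isosmotic SFN libraries of these genes (167 and 168 CPM for F3, 86.9 and 90.1 CPM for Cldn4, 13.6 and 16.03 CPM for Arc) were below the isosmotic DMSO libraries.

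With the same rule applied to libraries and not to a test, 7 members had both SFN 1 h libraries above both SFN isosmotic libraries (F3, Cldn4, Lif, Hes1, Arc, Areg and Adm). Of these, 2 members, F3 and Lif, had both Nrf2-/- 1 h libraries below both Nrf2-/- isosmotic libraries, and this difference between genotypes did not pass the direct test for either.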

How the results depend on the processing

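The number of members lower at 1 h was 59 in SFN-treated WT cells and lay between 54 and 67 under the other settings and between 41 and 50 without 1 of the 4 libraries, and the members called then were among the 59. In Nrf2-/- cells the number was 54, and it was 38 to 66 without 1 library and 4 in a fit of the compared libraries alone. Members lower at 6 h than before stress with SFN numbered 7, and 4 with at least 10 counts in every library, 11 in the 12 WT libraries, 11 without both Nrf2-/- 1 h libraries and 3 to 4 without 1 library. A smaller fall in Nrf2-/- cells was called for 0 members, for 2 by DESeq2, for 2 without a filter and for 0 to 10 without 1 library, and a larger fall for 0, 3, 2 and 0 to 17 in the same order. Members higher with SFN than with DMSO at 6 h numbered 0, and 1 by DESeq2, 3 in the 12 WT libraries, 7 in the compared libraries alone and 3 without both Nrf2-/- 1 h libraries. Before stress, 26 members were higher in Nrf2-/- cells (17 to 24 without 1 library) and 16 lower (9 to 13 without 1 library, 27 without both Nrf2-/- 1 h libraries). Causes of these shifts were not tested. The rule gave 94 members with TMM-scaled libraries, which held the 86, and 122 with 100 counts, 70 with 400 counts, 113 from means and 98 to 115 without 1 library. With the replicate number as a block, 59 members were lower at 1 h in WT and 51 in Nrf2-/- cells, and the other counts were 73 (higher from 1 h to 6 h with SFN), 43 and 7 (higher and lower at 6 h than before stress), 0 for each comparison that had 0, and 25 and 15 (higher and lower in Nrf2-/- cells before stress), so the block moved no count by over 1.5 times. Of 1876 alternatives for 164 values of named members, 1707 kept direction and call, 169 kept the direction and lost the call, and 0 reversed.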
